A study of Rattus norvegicus with 36 samples.

Results

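The mitosis genes described here are a list of 46 named genes, of which 41 had a probe set naming no other gene, among 14217 such genes on the arrays. Where a gene had several, the one with the highest mean over all 36 arrays stands for it. The list was drawn up with the difference between 970 mg/kg and vehicle already known, so that contrast is given as a description and is not tested. Of the other 5 genes, Anln and Ckap2 had only a probe set that also names another gene. Tpx2, Ndc80 and Ncapg had no probe set under these symbols in the platform annotation used, so they were not analysed here.

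The arrays measured liver RNA of male Harlan Sprague Dawley rats, 7 weeks of age when the study began. The rats were given decabromodiphenylethane (DBDPE), a brominated flame retardant, by gavage in corn oil at 5 ml/kg. Dosing ran for 5 days in a row, and tissue of the left liver lobe was taken 1 day after the final gavage. The 6 groups of 6 samples received corn oil alone (vehicle) or 1 of 5 doses, of which 970 mg/kg was the highest, followed by 97.1 mg/kg and then by 9.71, 0.97 and 0.1 mg/kg. Every group therefore had the same sex, age, corn oil and dosing schedule, and no animal carried a genetic change. Each sample was taken as 1 rat, which the labels do not state, so that the spread between samples may in part be technical. Values are log2 signals, so that a difference of 1 is a doubling, and a positive difference means higher than vehicle. They come from whole pieces of liver, in which more dividing cells and more RNA per dividing cell cannot be told apart.

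A cell enters mitosis when Cdk1 is activated by cyclins A and B. The spindle then captures the chromosomes at their kinetochores, a checkpoint waits until all are attached, and the anaphase-promoting complex (APC/C) lets them part before cytokinesis splits the cell. Most hepatocytes of an adult liver rest outside the cycle, and liver cells re-enter it in number after tissue loss, injury or exposure to mitogens. Many genes of mitosis are kept silent in resting cells and switched on late in the cycle through a short promoter element, the cell cycle genes homology region (CHR), and through CCAAT boxes, which bind NF-Y.

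Promoters of the genes held these elements often. A promoter here is the stretch from 250 bases before to 50 bases after the gene's start in the RefSeq table of build GRCr8, in which 37 of the 41 measured genes had an entry. CHR was searched as TTTGAA or TTCGAA, and CCAAT as CCAAT, each on both strands; the elements can overlap, as TTTGAATTGG holds both. A CHR match was present in 28 of 37 promoters (75.7%), against 19.5% of the 27457 promoters of the same length in the table and 14.0% of the 11733 promoters of genes on the array. A CCAAT match was also present in 28 of 37 (75.7%), against 37.7% of all promoters. Both elements stood together in 62.2%, against 7.83% of all promoters. Of the 35 CHR matches, 28 lay within 100 bases of the start. These matches are letters in a window and no measurement of binding.

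The promoters of 6 genes are shown because they cover genes with large and with small differences at 970 mg/kg, with and without a CHR match. Each is the stretch of 120 bases just before the start, on the strand of the gene, with CHR and CCAAT matches on either strand in capitals.
Ccnb2 (GRCr8 chr8:79981659-79981778, minus strand): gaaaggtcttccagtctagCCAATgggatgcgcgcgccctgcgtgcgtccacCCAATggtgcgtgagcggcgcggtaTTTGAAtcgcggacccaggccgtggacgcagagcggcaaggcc
Cdk1 (GRCr8 chr20:19265173-19265292, plus strand): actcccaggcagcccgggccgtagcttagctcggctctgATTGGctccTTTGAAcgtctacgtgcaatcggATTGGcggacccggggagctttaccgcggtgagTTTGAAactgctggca
Cdc20 (GRCr8 chr5:137255800-137255919, minus strand): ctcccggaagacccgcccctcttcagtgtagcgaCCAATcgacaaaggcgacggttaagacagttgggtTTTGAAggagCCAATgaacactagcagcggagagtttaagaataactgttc
Mki67 (GRCr8 chr1:199952594-199952713, minus strand): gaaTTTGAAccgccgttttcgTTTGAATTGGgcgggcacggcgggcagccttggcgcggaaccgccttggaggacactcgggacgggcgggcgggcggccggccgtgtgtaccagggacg
Cks2 (GRCr8 chr17:13727520-13727639, minus strand): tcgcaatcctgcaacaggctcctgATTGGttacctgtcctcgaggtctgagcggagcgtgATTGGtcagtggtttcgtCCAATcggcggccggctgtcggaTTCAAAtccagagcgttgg
Ccnb1 (GRCr8 chr2:33655226-33655345, minus strand): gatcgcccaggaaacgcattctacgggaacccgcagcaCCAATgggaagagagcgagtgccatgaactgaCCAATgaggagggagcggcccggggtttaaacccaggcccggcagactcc

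The first 5 each hold a CHR match, and in Ccnb1 these letters are not in the window. Among the 28 genes with a CHR match the median log2 difference at 970 mg/kg was 0.32 (0.11 to 0.72), and among the 9 without one it was 0.44 (0.26 to 0.65). The ranges overlapped. Since this contrast chose the list, nothing is read from these medians about the element. Another 31 mitosis genes outside the list held a CHR match in 67.7% of promoters, whereas 28 genes of the G1 phase and DNA replication did so in 17.9%. For a CCAAT match the shares were 61.3% and 60.7%, alike in both lists. Both elements stood together in 48.4% and 10.7%.

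All 41 measured genes had a higher mean at 970 mg/kg than in vehicle, with log2 differences between 0.11 and 0.72 and a median of 0.36. Of all 31042 probe sets, 48.1% had a difference above 0 in that comparison, and their median was -0.0040. None of the 41 passed the adjusted threshold of 0.05, which 0.00644% of probe sets passed; the list was chosen by this contrast, and nothing is read from either count. Every animal at 970 mg/kg lay above every vehicle animal in 4 genes, Smc2, Smc4, Melk and Cenpe, a separation that 0.116% of all probe sets showed. In 21 of the 41, at least 4 of the 6 animals lay above every vehicle animal, as in 2.75% of all probe sets. Since this contrast chose the list, nothing is read from that count either. The plot of intervals at 970 mg/kg shows the members by role.

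**Figure D1:**
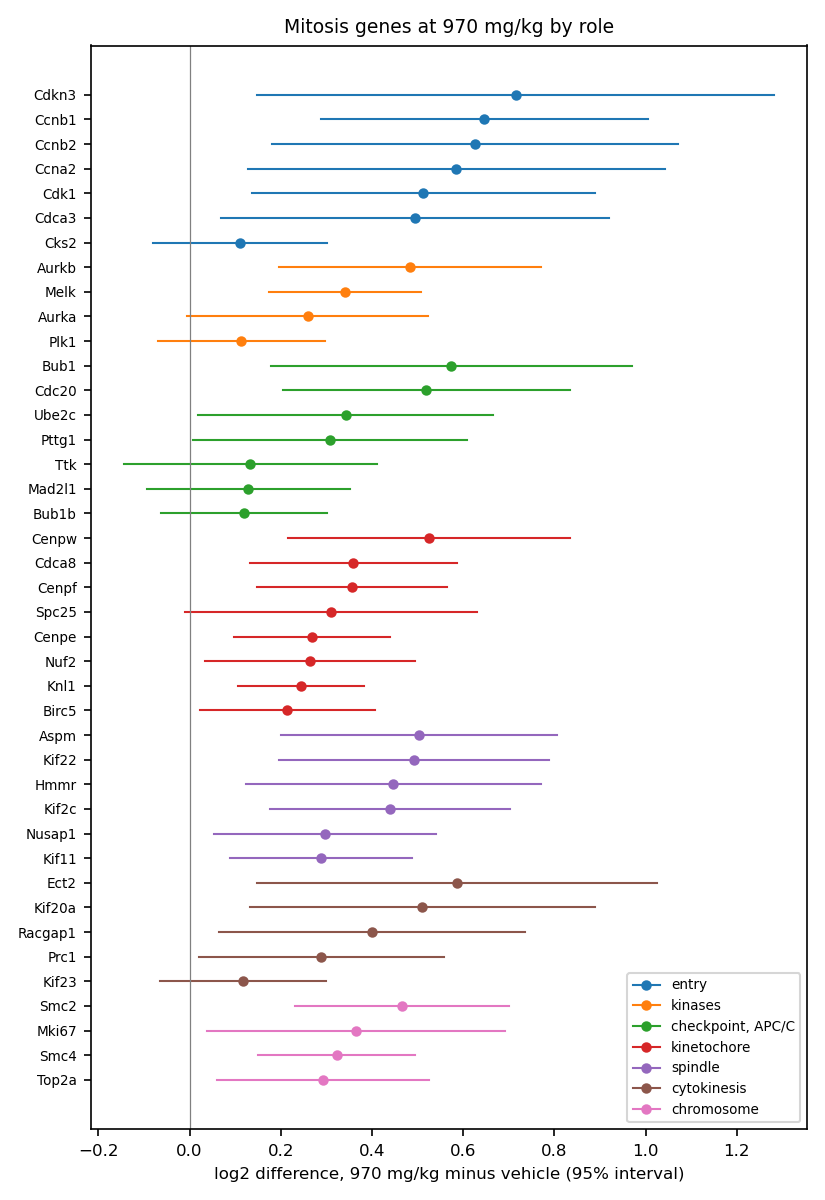
Log2 difference between 970 mg/kg and vehicle (x axis) for the 41 mitosis genes (y axis, grouped and coloured by role), points with 95% limma intervals, 6 animals a group. All 41 points lie above 0, from 0.11 for Cks2 to 0.72 for Cdkn3, as a description of the contrast that chose the list.

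Genes of entry into mitosis had the highest median of the roles, 0.59 over 7 genes. Ccnb1, the cyclin B1 that activates Cdk1, had log2 signals of 4.80, 5.12 and 5.28 in vehicle (lowest, median and highest animal, here and below), 4.79, 5.02 and 5.96 at 97.1 mg/kg and 5.05, 5.66 and 6.54 at 970 mg/kg. The 18 animals of the 3 lowest doses lay between 4.85 and 5.32. In all, 5 of the 6 animals at 970 mg/kg were above every vehicle animal, and the groups still overlapped through 1 animal. The difference was 0.65 (95% interval 0.29 to 1.01), and through a second probe set of Ccnb1 it was 0.33 (-0.05 to 0.71). Ccnb2, the related cyclin B2, had 5.97, 6.40 and 6.97 in vehicle, 5.85, 6.38 and 7.05 at 97.1 mg/kg and 6.11, 7.08 and 8.07 at 970 mg/kg. The lowest doses spanned 5.82 to 6.59, and 3 animals at 970 mg/kg were above every vehicle animal.

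Ccna2, cyclin A2, which acts from S phase into early mitosis, had 4.20, 4.47 and 5.13 in vehicle, 3.96, 4.40 and 5.25 at 97.1 mg/kg and 4.07, 5.25 and 6.17 at 970 mg/kg. At 970 mg/kg 3 animals were above every vehicle animal and 1 was below all of them, and the lowest doses spanned 3.79 to 4.72. Cdk1, the kinase itself, had 6.00, 6.21 and 6.39 in vehicle, 5.76, 6.01 and 7.04 at 97.1 mg/kg and 5.91, 6.68 and 7.62 at 970 mg/kg. It split in the same manner, with 4 animals above and 1 below the vehicle range, and the lowest doses spanned 5.60 to 6.26.

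Cdkn3, a phosphatase that removes the activating phosphate of Cdk kinases, had the largest difference of the list, 0.72 (0.15 to 1.28). Its signals were 5.74, 6.54 and 7.21 in vehicle, 5.37, 6.43 and 6.97 at 97.1 mg/kg and 5.84, 7.27 and 8.20 at 970 mg/kg, and the lowest doses spanned 5.43 to 6.78. The vehicle animals themselves were widely spread, and 3 animals at 970 mg/kg were above all of them. Cks2, a small subunit that binds Cdk1, had the smallest difference, 0.11 (-0.08 to 0.30), with 7.86, 8.04 and 8.33 in vehicle, 7.67, 7.98 and 8.20 at 97.1 mg/kg and 7.79, 8.25 and 8.37 at 970 mg/kg. Its groups overlapped almost wholly, with 1 animal above and 1 below the vehicle range, and the lowest doses spanned 7.81 to 8.38. Cdca3, which helps degrade the mitotic brake Wee1, was the last of this role, with a difference of 0.49 (0.07 to 0.92).

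The 4 mitotic kinases had a median difference of 0.30 at 970 mg/kg. Aurkb, the Aurora kinase that corrects faulty attachments, had 3.94, 4.08 and 4.47 in vehicle, 3.82, 3.99 and 4.56 at 97.1 mg/kg and 4.18, 4.65 and 5.26 at 970 mg/kg, with 4 animals above every vehicle animal. Aurka, the Aurora kinase of the spindle poles, had 4.71, 5.03 and 5.22 in vehicle, 4.66, 4.93 and 5.85 at 97.1 mg/kg and 4.98, 5.27 and 5.61 at 970 mg/kg. The highest Aurka signal of all 36 animals was thus at 97.1 mg/kg, not at the top dose. The lowest doses spanned 3.66 to 4.31 for Aurkb and 4.60 to 5.22 for Aurka. Plk1, a kinase that acts from mitotic entry to cytokinesis, differed by 0.11 (-0.07 to 0.30), with 5.93, 6.04 and 6.23 in vehicle, 5.86, 6.22 and 6.35 at 97.1 mg/kg and 6.04, 6.18 and 6.24 at 970 mg/kg. Only 1 animal at 970 mg/kg was above the vehicle range of Plk1, and the lowest doses reached further, from 5.78 to 6.37. With the beta-actin 3′ minus 5′ difference, a measure of RNA quality, as a covariate, its difference at 970 mg/kg was 0.03.

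Melk, a kinase found mainly in dividing cells, differed by 0.34 (0.17 to 0.51) at 970 mg/kg, and its mean was above vehicle at every lower dose. It had 3.10, 3.22 and 3.29 in vehicle, 3.27, 3.47 and 3.68 at 97.1 mg/kg and 3.38, 3.47 and 3.93 at 970 mg/kg, and the lowest doses spanned 3.16 to 3.62. Of the 6 animals at 97.1 mg/kg 5, and all 6 at 970 mg/kg lay above every vehicle animal. So did 2 animals at 0.1 mg/kg and 4 each at 0.97 and 9.71 mg/kg. The SD of Melk in vehicle was small, 0.076. Shares of all probe sets above every vehicle animal were not computed at doses below 970 mg/kg. The signals of Melk are far below the array medians of 5.07 to 5.12, and 21 of the 41 genes had a mean below those medians.

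Among the 7 genes of the spindle checkpoint and the APC/C the median at 970 mg/kg was 0.31. Cdc20, which activates the APC/C, had 5.97, 6.22 and 6.42 in vehicle, 5.76, 6.21 and 6.88 at 97.1 mg/kg and 6.02, 6.75 and 7.53 at 970 mg/kg, with 4 animals above the vehicle range. Cdc20 has 5 probe sets, and the 4 not used differed from vehicle by -0.15 to 0.30 where the one used differed by 0.52. The mean of all 5 differed by 0.17. The lowest doses spanned 5.94 to 6.51 through the probe set used. Ube2c, the enzyme that hands ubiquitin to the APC/C, had 5.91, 6.04 and 6.07 in vehicle, 5.46, 5.80 and 6.47 at 97.1 mg/kg and 5.67, 6.41 and 7.21 at 970 mg/kg. Its vehicle animals were tightly grouped, so that 4 animals were above and 1 below them at 970 mg/kg, and 2 above and 4 below at 97.1 mg/kg. Animals of the lowest doses had 5.49 to 6.10.

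The checkpoint genes covered a wide range. Bub1, which recruits checkpoint proteins to kinetochores, differed by 0.57 (0.18 to 0.97). Bub1b, part of the complex that restrains Cdc20, differed by 0.12 (-0.06 to 0.30), with 3.72, 3.98 and 4.24 in vehicle, 3.80, 3.95 and 4.29 at 97.1 mg/kg and 3.88, 3.98 and 4.39 at 970 mg/kg. The medians of Bub1b were alike in these 3 groups, and the lowest doses spanned 3.65 to 3.98. Ttk, the kinase that starts the checkpoint, and Mad2l1, another restraint on Cdc20, each differed by 0.13. Pttg1, the securin that the APC/C destroys at anaphase, differed by 0.31 (0.01 to 0.61).

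Kinetochore genes had a median of 0.29 over the 8 measured of 9. Cenpf, a large protein of the outer kinetochore, had 4.67, 4.80 and 4.85 in vehicle, 4.58, 4.68 and 4.88 at 97.1 mg/kg and 4.80, 5.19 and 5.42 at 970 mg/kg, and 5 animals were above the vehicle range. Birc5, the survivin of the chromosomal passenger complex, had 5.44, 5.52 and 5.78 in vehicle, 5.34, 5.52 and 6.00 at 97.1 mg/kg and 5.52, 5.74 and 6.11 at 970 mg/kg, where 3 animals were above that range. At the lowest doses the range was 4.49 to 5.10 for Cenpf and 5.38 to 5.77 for Birc5. Cenpe, a kinetochore motor, had 3.35, 3.73 and 3.81 in vehicle, 3.52, 3.77 and 4.04 at 97.1 mg/kg and 3.82, 3.91 and 4.08 at 970 mg/kg. The 970 mg/kg animals of Cenpe were separate from vehicle by a narrow margin, and its highest animal of the 36, at 4.33, had received 0.1 mg/kg. The lowest doses spanned 3.58 to 4.33. At 0.1, 0.97, 9.71 and 97.1 mg/kg, 5, 2, 4 and 3 animals were above every vehicle animal of Cenpe. Shares of all probe sets were not computed at those doses. The mean of Cenpe was 3.94 at 0.1 mg/kg and 3.92 at 970 mg/kg. Cenpw, a protein of the inner kinetochore, differed by 0.52, and by 0.32 through a second probe set. Cdca8, the borealin of the passenger complex, differed by 0.36. Spc25, Nuf2 and Knl1, which bind microtubules as parts of 1 network, differed by 0.31, 0.26 and 0.25.

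Spindle genes had a median of 0.44 over the 6 measured of 8. Kif11, the motor that pushes the spindle poles apart, had 4.31, 4.51 and 4.71 in vehicle, 4.40, 4.70 and 4.83 at 97.1 mg/kg and 4.32, 4.87 and 5.13 at 970 mg/kg. The lowest doses spanned 4.35 to 4.91 and so reached above vehicle too. Aspm, which focuses spindle poles, differed by 0.50, Kif22, a motor that moves chromosome arms, by 0.49, Hmmr, a spindle-bound hyaluronan receptor, by 0.45, Kif2c, which shortens microtubules, by 0.44, and Nusap1, which bundles them, by 0.30. A second probe set of Kif2c differed by 0.13, and the mean of both by 0.28. Hmmr differed by 0.19 (0.02 to 0.35) through its second probe set.

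Cytokinesis genes had a median of 0.40 over the 5 measured of 6. Prc1, which bundles the central spindle, had 5.52, 5.95 and 6.11 in vehicle, 5.49, 5.79 and 6.16 at 97.1 mg/kg and 5.72, 6.04 and 6.66 at 970 mg/kg. The Prc1 ranges at 970 mg/kg and in vehicle overlapped, and 3 animals lay above every vehicle animal, while the lowest doses spanned 5.49 to 6.00. Kif23, a motor of the central spindle, differed by 0.12 (-0.07 to 0.30), with 4.80, 5.07 and 5.35 in vehicle, 4.79, 5.09 and 5.23 at 97.1 mg/kg and 5.00, 5.17 and 5.39 at 970 mg/kg. Only 1 animal was above the vehicle range of Kif23, and the lowest doses spanned 4.84 to 5.33. A second probe set of Kif23 differed by 0.23 (0.05 to 0.42), and with the beta-actin covariate the probe set used differed by 0.06. Its partner Racgap1 differed by 0.40 through the probe set used, by 0.04 through a second one and by 0.22 in their mean. Ect2, the exchange factor that switches on RhoA at the cleavage plane, differed by 0.59, and the motor Kif20a by 0.51.

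Chromosome genes had a median of 0.34 over the 4 measured of 5. Mki67, the proliferation marker that coats mitotic chromosomes, had 4.24, 4.35 and 4.97 in vehicle, 4.10, 4.39 and 5.15 at 97.1 mg/kg and 4.28, 4.88 and 5.54 at 970 mg/kg. Top2a, which untangles DNA, had 5.02, 5.14 and 5.38 in vehicle, 4.97, 5.11 and 5.53 at 97.1 mg/kg and 5.03, 5.48 and 5.85 at 970 mg/kg. At 970 mg/kg 2 animals were above the vehicle range of Mki67 and 4 above that of Top2a. At the lowest doses signals were 3.78 to 4.54 for Mki67 and 4.86 to 5.47 for Top2a. Smc2 and Smc4, the core of condensin, differed by 0.47 and 0.32, and all 6 animals were above vehicle in both. Through a second probe set Smc4 differed by 0.16 (0.03 to 0.28). Over the list, 13 genes had 17 further probe sets, of which 16 were higher at 970 mg/kg, with a median of 0.18 (-0.15 to 0.33). Over all probe sets 48.1% were higher.

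**Figure D2:**
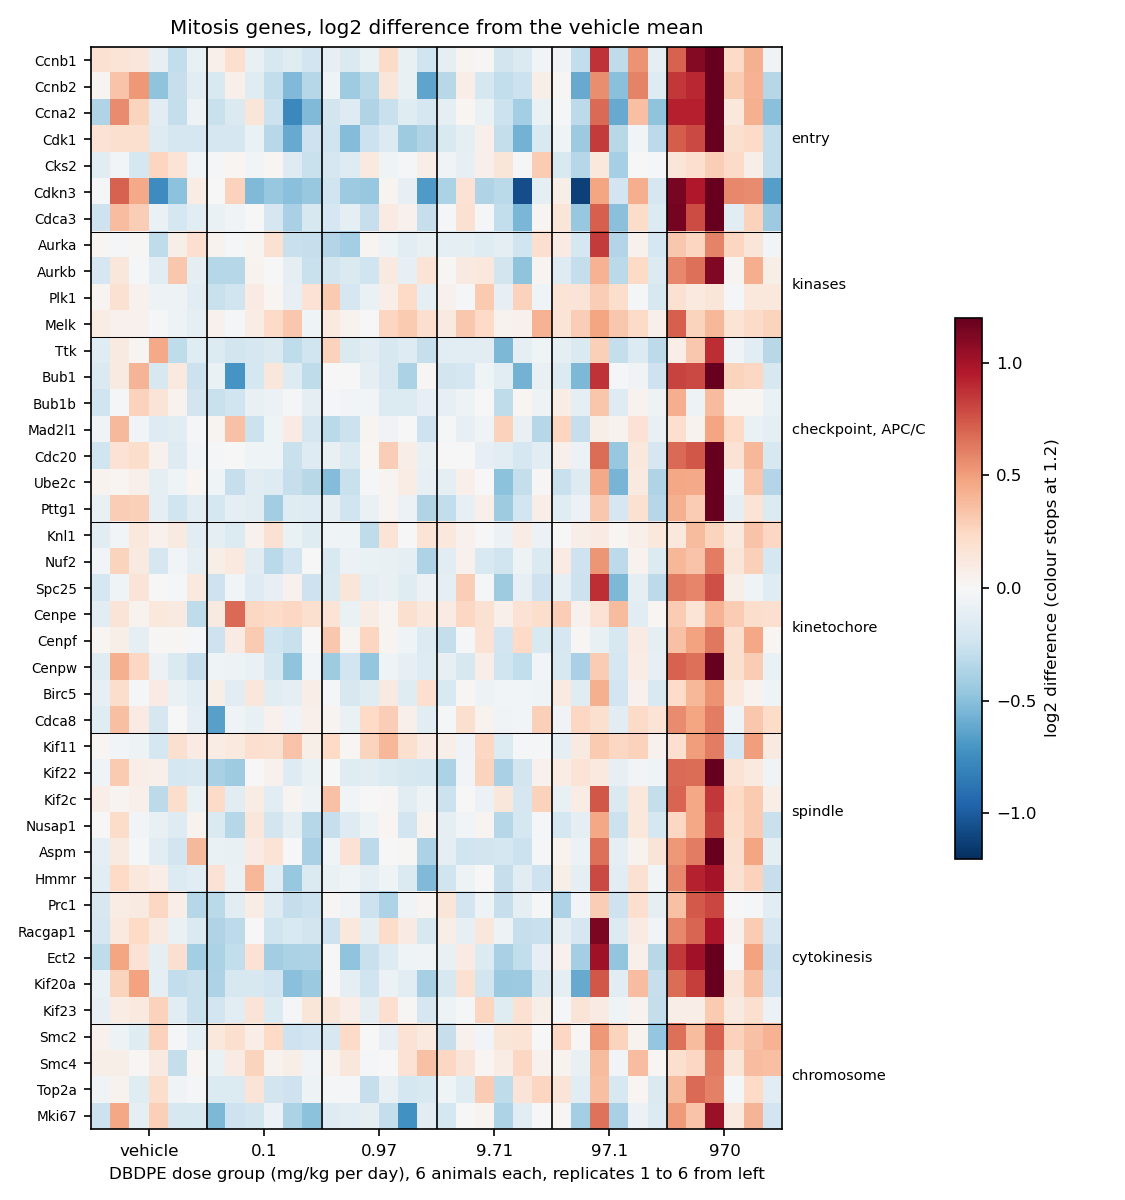
Log2 difference from the vehicle mean (colour, red higher and blue lower) for 41 mitosis genes (rows, by role) in 36 animals (columns, 6 per dose group, replicates 1 to 6 from left). Replicate 3 at 970 mg/kg and replicate 3 at 97.1 mg/kg are red in most rows, and replicate 6 at 970 mg/kg is blue or pale in many.

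The animals at 970 mg/kg did not share 1 level. Summarised per animal as the median over the 41 genes of the log2 difference from the vehicle mean, replicate 3 stood at 0.84, replicate 1 at 0.52, replicate 2 at 0.48, replicate 5 at 0.30, replicate 4 at 0.15 and replicate 6 at -0.14. Vehicle animals lay between -0.11 and 0.16, so that replicates 4 and 6 were inside or below the vehicle range. Replicate 3 was above every vehicle animal in 40 genes, replicate 1 in 37, replicate 2 in 34 and replicate 5 in 20. Replicate 4 was above them in 8 genes, and replicate 6 in 5 and below them in 9. In animals of the 3 lowest doses, 0 to 6 of the 41 genes were above every vehicle animal and 0 to 16 below. Shares over all probe sets were not computed per animal, and nothing is read from these counts. Replicate 3 was the highest of its group in 36 genes and replicate 6 the lowest in 32. The SD over animals was larger at 970 mg/kg than in vehicle in 37 of 41 genes, with a median SD of 0.40 against 0.19 (n = 6 each). Shares over all probe sets were not computed for the SD or for these ranks. The genes also varied together between animals, so nothing is read from these counts about the genes. Without replicate 3 the median difference of the 41 genes was 0.29, and 14 genes moved by over 1.5 times, among them Ccna2 (0.38), Cdk1 (0.33), Ube2c (0.17) and Pttg1 (0.12), and Ttk was at -0.02.

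All 6 animals at 970 mg/kg had a high signal of Cyp1a1, a target of the aryl hydrocarbon receptor. Cyp1a1 stood at 10.02 in replicate 3, which was highest in mitosis genes, and at 10.98 in replicate 6, which was lowest. The vehicle animals lay between 4.35 and 4.76. The order of the animals in mitosis genes was therefore not their order in Cyp1a1. Replicate 6 also had the highest beta-actin 3′ minus 5′ difference of its group, 1.33, against 1.10 to 1.23 in the other 5 and 1.05 to 1.22 in vehicle. When this RNA quality measure entered the fit as a covariate, the 41 genes had a median difference of 0.34 at 970 mg/kg.

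**Figure D3:**
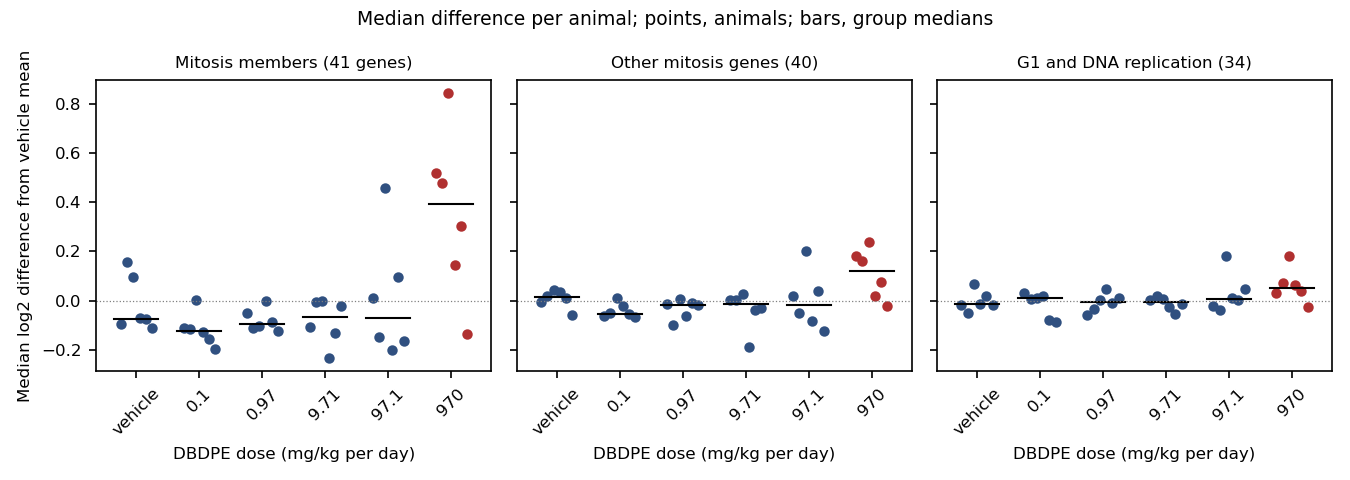
Median log2 difference from the vehicle mean in each animal (points) by dose group in mg/kg per day, with group medians as bars, for the 41 mitosis genes, 40 other mitosis genes and 34 genes of the G1 phase and DNA replication. In the first panel the 970 mg/kg animals run from -0.14 to 0.84, and 1 animal at 97.1 mg/kg stands at 0.46.

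At 97.1 mg/kg the median over the genes lay at the vehicle level, while 1 animal stood well above it. The median difference of the 41 genes was 0.00, and 21 lay above 0 (51.2%, against 49.6% of all genes). The adjusted threshold was passed by 0 of 41 and by 0.00644% of all probe sets (limma, Benjamini-Hochberg). At an unadjusted p under 0.05, 1 gene was higher, Melk (0.26, interval 0.09 to 0.43, adjusted p 0.900), and 0 were lower, against 2.73% and 2.7% of all probe sets. Replicate 3 had a median of 0.46 and was above every vehicle animal in 31 genes, the highest of its group in 33. The other 5 animals had medians of -0.20 to 0.10 and were above every vehicle animal in 0 to 7 genes. The share over all probe sets was not computed per animal. Without replicate 3 the median difference of the group was -0.11. Cyp1a1 ranged from 6.66 to 9.26 in this group, and replicate 3 had 8.93, the second of the 6.

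The 3 lowest doses had medians slightly below vehicle, and no gene passed. At 0.1 mg/kg the median was -0.12 with 6 of 41 genes above 0. It was -0.11 with 11 above 0 at 0.97 mg/kg, and -0.09 with 11 above 0 at 9.71 mg/kg. Of all genes, 50.6%, 48.7% and 46.9% lay above 0 at these doses. The comparisons share the same 6 vehicle animals, of which replicates 2 and 3 had medians of 0.16 and 0.10. No gene of the 41 passed the adjusted threshold at any of the 3 doses, and 0% of all probe sets did (limma, Benjamini-Hochberg). Unadjusted p under 0.05 was reached by 1 higher gene at each dose, and by 0 lower ones. These were Cenpe at 0.1 mg/kg (0.28, adjusted p 0.999), Kif11 at 0.97 mg/kg (0.20, adjusted p 0.985) and Melk at 9.71 mg/kg (0.20, adjusted p 0.968). The shares of all probe sets, higher and lower, were 2.31% and 2.15% at 0.1 mg/kg, 2.45% and 2.46% at 0.97 mg/kg and 2.43% and 2.63% at 9.71 mg/kg, so that 1 of 41 (2.44%) was near the background.

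Among the roles, entry genes had medians of -0.24, -0.22 and -0.15 in order of dose and cytokinesis genes -0.22, -0.11 and -0.09. Checkpoint and APC/C genes had -0.20, -0.11 and -0.14, and spindle genes -0.05, -0.10 and -0.12. Kinetochore genes had -0.07, -0.02 and -0.05, chromosome genes -0.04, -0.05 and 0.02, and kinases -0.05, -0.02 and 0.00. The differences between roles were not tested. The lowest single values were those of Mki67 (-0.33) and Kif20a (-0.32) at 0.1 mg/kg, Cdk1 (-0.33) and Cdkn3 (-0.31) at 0.97 mg/kg and Cdkn3 (-0.35) at 9.71 mg/kg. The 95% interval of a difference had a median half-width of 0.28 over the 41 genes (0.14 to 0.57), which is the precision of these groups of 6. In simulated data of this size 97% of 100 probe sets changed 1.5-fold were recovered at 97.1 mg/kg. Those probe sets were drawn at random from all 31042, with noise independent between them. The share therefore does not say how many of the 41 genes would be recovered.

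**Figure D4:**
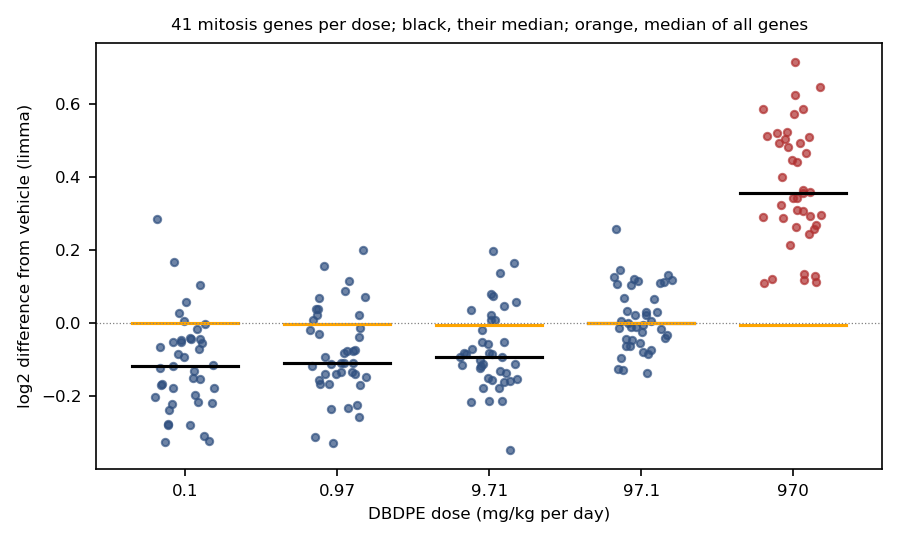
Log2 difference from vehicle (limma, y axis) of the 41 mitosis genes (points) at each DBDPE dose (x axis, mg/kg per day), with their median (black) and the median of all genes (orange). The black bars lie at -0.12, -0.11, -0.09, 0.00 and 0.36 in order of dose, beside orange bars near 0.

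A slope over the dose steps from vehicle to 97.1 mg/kg used the 30 animals outside the highest dose group. The vehicle animals among them were part of the contrast that chose the list, so the slope is not independent of that choice. None of the 41 genes passed its adjusted threshold, which 0.00322% of all probe sets passed (limma, Benjamini-Hochberg). Melk was the 1 gene higher at an unadjusted p under 0.05, with 0.06 per step (0.03 to 0.09, adjusted p 0.908), and 0 were lower, against 2.45% and 2.86% of all probe sets. In all, 28 of 41 slopes were above 0, with a median of 0.00 per step. Over all genes 48.2% of slopes were above 0. Because the vehicle animals are shared with the contrast that chose the list, nothing is read from the count of 28.

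Outside the list, 40 further mitosis genes had a median difference of 0.13 at 970 mg/kg with 33 above 0, and 0 passed the adjusted threshold. Those of smallest p were Kif18b, a motor that shortens astral microtubules (0.26), Shcbp1, a midbody protein (0.44), Kif14, a cytokinesis motor (0.23), and Cenpn, which reads centromeric chromatin (0.32), each with adjusted p 0.966. Their medians at the lower doses were -0.06, -0.07, -0.02 and 0.01. The 16 transcription regulators of the cycle had a median of 0.06 at 970 mg/kg with 13 above 0 and 0 past the threshold, among them E2f8 (0.11) and E2f1 (0.10). The 34 genes of the G1 phase and DNA replication had a median of 0.05 with 26 above 0 and 0 past the threshold. Beside these counts, 47.5% of all genes lay above 0 at 970 mg/kg. Mcm4, a subunit of the replicative helicase, was at 0.28, Slbp, which binds histone mRNA, at 0.28, and Mcm6 at 0.26. Per animal at 970 mg/kg, the further mitosis genes ran from -0.02 in replicate 6 to 0.24 in replicate 3, the same ends as the 41 genes, and the G1 and replication genes from -0.02 to 0.18, with the same ends.

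Hepatocyte markers were at their usual high signals, with mean levels of 12.96 to 13.10 in vehicle and 12.85 to 13.20 at 970 mg/kg on the log2 scale. Markers of other cells were measured beside the mitosis genes, and 0 of them passed the adjusted threshold at 970 mg/kg. Macrophage markers had a median difference of 0.20 with 9 of 9 above 0, and mean levels of 7.98 to 8.50 against 7.70 to 8.56 in vehicle. They were also above 0 in 9 of 9 at 0.1 and 0.97 mg/kg, with medians of 0.15 and 0.26, where the mitosis genes were at -0.12 and -0.11. T and NK cell markers had a median of 0.07 with 9 of 11 above 0 and mean levels of 4.72 to 4.88 against 4.60 to 4.80. Neutrophil markers had a median of 0.05 with 6 of 9 above 0 and mean levels of 3.74 to 4.59 against 3.75 to 3.95. The 4.59 was that of replicate 3, the animal highest in mitosis genes, whose neutrophil markers had a median difference of 0.29; the other 5 animals lay between 3.74 and 4.13. B cell markers were at 0.13 (3 of 3 above 0), bile duct markers at 0.10 (4 of 5), erythroid markers at 0.02 (5 of 9), stellate cell and fibroblast markers at -0.03 (3 of 9) and endothelial markers at -0.09 (1 of 6). The part of these cells in the mitosis signals was not tested. For the counts above 0, the shares over all genes were 47.5% at 970 mg/kg, 50.6% at 0.1 mg/kg and 48.7% at 0.97 mg/kg.

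The mitosis genes varied together between animals of the same group. After each group's mean was removed, the median Pearson r over the 820 pairs of the 41 genes was 0.34 over the 30 animals without 970 mg/kg, with 93.4% of pairs above 0, beside 0.00 over all pairs of genes. All genes of an animal share 1 array, and r is a description. Entry genes were most alike, with a median of 0.72, and kinetochore genes least, with 0.16. The other mitosis genes had 0.10, G1 and replication genes 0.09 and macrophage markers 0.88. The value depended on 1 animal: without replicate 3 at 97.1 mg/kg the median over the 41 genes was 0.20, with 82.3% of pairs above 0, and that of entry genes was 0.66. Over all 36 animals the median was 0.48. Ect2 (0.60), Cdk1 (0.60) and Ccna2 (0.58) had the highest median r with the other genes over the 30 animals, and Cenpe (0.07), Mad2l1 (0.08) and Cenpf (0.11) the lowest. Without replicate 3 at 97.1 mg/kg this order changed: Ccna2 had 0.43, Pttg1 0.36, Ect2 0.36 and Cdk1 0.32, while Smc2 (-0.03) and Cks2 (0.03) were lowest and Cenpf had 0.14.

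**Figure D5:**
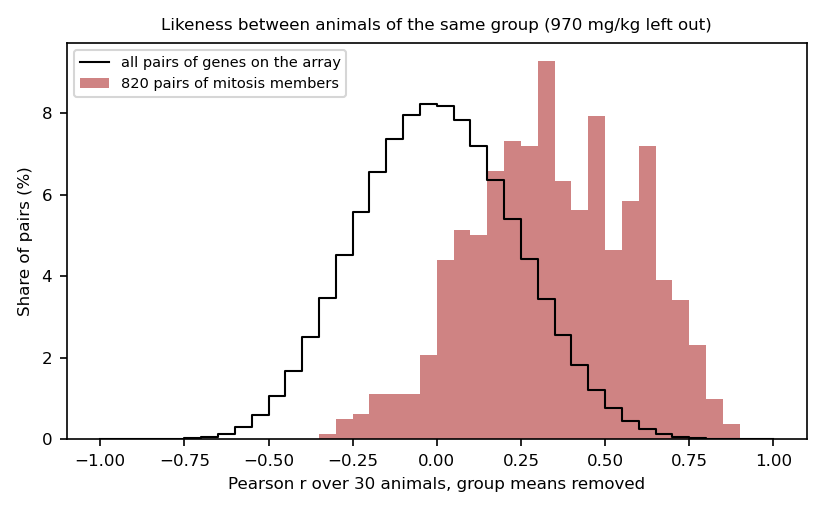
Share of gene pairs (y axis, %) by Pearson r of log2 signals after removal of group means (x axis), over the 30 animals without 970 mg/kg, for the 820 pairs of mitosis genes (red bars) and all pairs of genes on the array (black line). The red bars centre on a median of 0.34 and the black line on 0.00.

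The genes outside the list whose signals followed the mean of the 41 most closely were named by Pearson r over the 36 animals with group means removed. Knstrn, a kinetochore and spindle protein, had r = 0.90 (Spearman rho 0.86), and Spc24, the direct partner of Spc25, had 0.89 (0.85). Arhgap11a had 0.87 (0.72), Shcbp1 0.85 (0.72) and Kif20b 0.82 (0.85). Pclaf, which binds the replication clamp PCNA, and Trim59 had 0.79 each, Pbk 0.77, Tacc3 0.75 and the histone variant gene H2az1 0.73. Without the 2 animals farthest from the median of that mean, replicate 3 at 970 and replicate 3 at 97.1 mg/kg, r was 0.87 for Knstrn, 0.88 for Spc24, 0.76 for Arhgap11a and 0.57 for H2az1. Over the 30 animals without 970 mg/kg it was 0.77 for Knstrn and 0.82 for Spc24. At 970 mg/kg Pclaf was 0.56, Knstrn 0.50 and Spc24 0.42 above vehicle, as differences of log2 signal.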

How the data were processed

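Liver RNA of 36 samples was labelled with a 3′ IVT kit and hybridised to Affymetrix arrays. The authors deposited log2 signals, 1 per probe set and array, made with RMA in affy per the submitters' processing notes, with versions not given in the sources used here; per the series' design text they compared each dose with vehicle in R/maanova. Of 31099 probe sets, 57 controls were left out and no filter on low values was applied. Genes came from the platform annotation (20826 probe sets with 1 gene), with the probe set of highest mean per gene. Each dose was compared with vehicle in limma 3.58.1 (R 4.3.3) over all 36 samples, two-sided, with Benjamini-Hochberg adjustment over 31042 probe sets and a threshold of 0.05. The slope used 30 samples. The number of arrays limits the precision.

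The members, gene lists and marker lists were chosen with earlier results of these data known. Genes given in full were 16 named core genes, the 3 of largest and 3 of smallest difference at 970 mg/kg, and members with unadjusted p under 0.05 at another dose or in the slope; the 3 lowest doses are given together as a range. Outside the members, up to 4 genes of smallest p per list and the 10 most alike were eligible for naming; Cyp1a1 was chosen after its values were seen. Promoters come from RefSeq, GRCr8. The method was tested on simulated data with 31042 probe sets for 97.1 mg/kg. The changed probe sets were drawn at random from all, and the noise was independent between probe sets. There limma recovered 97% of 100 probe sets given a 1.5-fold change and 99% of 100 given a 2-fold change. It made 12 false calls. As alternatives, the fit was repeated with a block for replicate number, with arrays weighted, centred or adjusted by cyclic loess, with a robust and trended prior, with the beta-actin 3′ minus 5′ difference as a covariate, with probe sets averaged per gene, with dim probe sets left out, with only the 2 groups compared and without each sample in turn; likeness was repeated with Spearman correlation.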

Additional observations from a re-analysis of the deposited data

Results flagged for a closer look

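Single animals stood apart from the other 5 of their group by a Dixon gap in 7 of 132 gene and group combinations, where chance gives about 6.6. Cdk1 at 97.1 mg/kg was 7.04 in replicate 3, against 5.76 to 6.17 in the others. Ccnb1 at 0.97 mg/kg was 5.32 in replicate 4, against 4.85 to 5.01. Aurka at 9.71 mg/kg was 5.22 in replicate 6, against 4.77 to 4.91. Plk1 at 970 mg/kg was 6.04 in replicate 4, below the others at 6.17 to 6.24. Bub1b at 9.71 mg/kg was 3.65 in replicate 4, below 3.86 to 3.98. Mki67 at 0.97 mg/kg was 3.78 in replicate 5, below 4.22 to 4.40. Cenpe at 0.1 mg/kg was 4.33 in replicate 2, against 3.76 to 3.91. All values are log2 signals.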

How the results depend on the processing

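The count of mitosis genes past the adjusted threshold was 0 at each of the 4 lower doses and in the slope under every alternative run. With the replicate number as a block it was 0 as well. Each number occurs once in every group, so the block could not change the differences themselves. Samples with the same number had a mean residual r of 0.0048 over 90 pairs (-0.25 to 0.26, 15 over 0.1). Pairs with different numbers were not set beside them, so whether some numbers share a batch was not tested. Genes above 0 at 970 mg/kg numbered 19 when only probe sets at or above the median level were kept, because 19 of the 41 remained, and 40 to 41 with 1 sample left out; the 1 gene lost was Ttk (-0.02) without replicate 3 at 970 mg/kg. With 1 sample left out, median differences ranged from -0.15 to -0.08 at 0.1 mg/kg, -0.13 to -0.07 at 0.97 mg/kg, -0.13 to -0.05 at 9.71 mg/kg, -0.11 to 0.06 at 97.1 mg/kg and 0.29 to 0.42 at 970 mg/kg. The median r of members ranged from 0.20 to 0.37 in the same way and was 0.27 with Spearman correlation. Of 347 values of single genes at 970 mg/kg under the alternatives that leave out no sample of either group, 0 changed sign. Counts of genes higher at an unadjusted p under 0.05 lay between 0 and 3 at the 4 lower doses and in the slope. Signals below the array median limit what 21 of the genes can show.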
